A study of Mus musculus with 2 samples.

Results

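The genes described here are 29 enzymes and regulators of cholesterol and fatty acid synthesis, chosen by name as a functional module out of the 32285 genes in the count tables. All 29 were found in both tables. By role they are 7 genes of the early and mevalonate steps, 10 genes that turn farnesyl diphosphate into cholesterol, 4 control and transport genes, and 8 genes of fatty acid synthesis, elongation and desaturation. The first 17 are called the sterol enzymes below and the last 8 the fatty acid enzymes.

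Single-cell RNA-seq was performed on E14.5 mouse fetal liver cells of strain CD1, in 1 IκBα WT library from a pool of 2 embryos and 1 IκBα KO library from a pool of 3 embryos. Both were depleted of lineage-positive cells and sorted as LSK, the lineage-negative, SCA1-positive, cKIT-positive gate that holds hematopoietic stem and progenitor cells. The titles of both libraries name LT-HSC, whereas the cell type label reads LSK. IκBα, encoded by Nfkbia, retains NF-κB in the cytoplasm.

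With a single library for each genotype there was no replicate and no test: every interval given here is a 95% interval that covers counting error only, and p-values were not computed. UMIs (unique molecular identifiers, each marking a captured transcript) were summed over the cells of a marker-gated class and are given as CPM, the count scaled to 1000000 UMIs of that class. Cells were gated on the summed CPM of fixed marker lists, which contain none of the 29 genes. Among the stem and progenitor lists, the one that led named the class, for example HSC-like. A cell past a single megakaryocyte, macrophage, endothelial or hepatocyte cut was placed in that class whatever its other markers. A KO/WT difference of at least 0.32 on the log2 scale, up or down, is called past the fold. Because the chemistry tags the 3′ end, a transcript gives at most 1 UMI whatever its length, so levels of different genes are compared without a length correction.

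The filtered libraries held 3458 WT and 4417 KO cells, with medians of 28065 and 19560 UMIs per cell, and shared 7 barcodes. Nfkbia had 1478 UMIs in WT and 7 in KO, which matched the labels. By transcripts the cells were broader than an LSK gate, which is set on surface protein and not on RNA. Ly6a, which encodes SCA1, was at 27.6 and 36.3 CPM in HSC-like cells and at 0.531 and 0.812 CPM in late erythroid-like cells (WT and KO, the order used throughout). Kit, which encodes cKIT, was at 121 and 109 CPM in HSC-like and 46.0 and 43.8 CPM in late erythroid-like cells. It was at 6.23 and 9.80 CPM in erythroblast-like cells, which numbered 680 and 1131. Hepatocyte-like cells, 30 and 64 in number, were gated on the sum of 8 hepatocyte markers and served as the reference for high lipid synthesis. A cluster of 105 cells with a median of 6978 UMIs held 104 KO cells and 1 WT cell, and results that moved without it are named. The share of cells with Xist and no Y-linked UMI was 95.9% and 69.4%.

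Cholesterol is built from acetyl-CoA. The mevalonate steps make isoprenoid units, squalene synthase joins them, and a chain of endoplasmic reticulum enzymes closes the rings and trims the first sterol to cholesterol. Fatty acids are built from the same acetyl-CoA by carboxylation and by fatty acid synthase, then lengthened and desaturated. SREBP transcription factors, held in the endoplasmic reticulum by INSIG proteins when sterols are plentiful, raise transcription of both branches, SREBP-2 mainly the sterol enzymes and SREBP-1 mainly the fatty acid enzymes, and NF-Y, which binds CCAAT, is a known partner at many of these promoters. The fetal liver is at this stage both a site of blood formation and an organ of growing hepatocytes, which export sterol and fatty acid in lipoproteins.

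The promoters of the sterol enzymes shared a sequence feature that the choice of genes had not used. In the 250 bases before the transcription start (RefSeq, GRCm38.p6), 22 of the 29 genes had an entry, with up to 3 windows per gene. The word CCAAT, on either strand, was present in a window of 17 of these 22 genes (77.3%), against 37.5% of 27025 genes with a window and 33.8% of 32851 windows. It was found in 13 of 14 sterol enzymes and in 1 of 5 fatty acid enzymes. The sterol response element TCACNCCAC, on either strand, was present in 1 of the 22 genes and in 1.22% of all genes. CACGTG, which reads alike on both strands and is a site that SREBP-1 and other helix-loop-helix factors can bind, was present in 4 of 22 genes (Hsd17b7, Sc5d, Dhcr7 and Insig1) and in 6.86% of all genes. These are matches of letters only.

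Windows of a pair of sterol enzymes and a pair of fatty acid enzymes are shown, since the branches differed most in the cell classes described below. They are Hmgcs1, which forms HMG-CoA (chr13:119690101-119690350, plus strand), Mvk, mevalonate kinase (chr5:114444019-114444268, plus strand), Fasn, fatty acid synthase (chr11:120824548-120824797, minus strand), and Acly, which makes cytosolic acetyl-CoA from citrate (chr11:100528001-100528250, minus strand). Each is written 5′ to 3′ on the gene's strand, with CCAAT or its reverse complement in capitals and, in Hmgcs1 only, also TCACNCCAC. In Fasn, 2 of the matches overlap on opposite strands, and Acly had no match. These windows are not typical of their branches. Mvk had the most CCAAT matches of the 22 genes, at 5, Hmgcs1 was the only gene with TCACNCCAC, and Fasn was the only fatty acid enzyme with CCAAT.
Hmgcs1: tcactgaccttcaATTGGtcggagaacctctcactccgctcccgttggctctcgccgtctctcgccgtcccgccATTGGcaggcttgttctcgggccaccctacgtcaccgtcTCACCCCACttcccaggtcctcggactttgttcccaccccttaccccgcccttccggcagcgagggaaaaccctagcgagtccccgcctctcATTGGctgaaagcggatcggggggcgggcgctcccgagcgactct
Mvk: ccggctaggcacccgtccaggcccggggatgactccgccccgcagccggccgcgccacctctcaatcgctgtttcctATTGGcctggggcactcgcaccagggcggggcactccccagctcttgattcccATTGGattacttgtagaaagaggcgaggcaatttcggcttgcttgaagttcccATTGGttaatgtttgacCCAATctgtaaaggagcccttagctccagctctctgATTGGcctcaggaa
Fasn: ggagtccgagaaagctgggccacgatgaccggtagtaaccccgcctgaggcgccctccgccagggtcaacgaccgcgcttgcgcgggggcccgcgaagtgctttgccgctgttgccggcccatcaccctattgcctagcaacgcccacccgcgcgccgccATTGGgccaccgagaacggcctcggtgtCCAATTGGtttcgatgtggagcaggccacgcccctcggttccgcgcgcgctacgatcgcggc
Acly: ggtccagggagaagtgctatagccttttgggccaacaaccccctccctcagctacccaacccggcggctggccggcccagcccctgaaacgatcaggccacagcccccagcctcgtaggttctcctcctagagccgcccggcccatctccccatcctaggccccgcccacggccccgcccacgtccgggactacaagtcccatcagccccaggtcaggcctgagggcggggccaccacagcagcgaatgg

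Every class expressed the pathway, and the classes differed in which members were high. The 17 sterol enzymes summed to 375 CPM (361 to 388) and 364 CPM (348 to 380) in HSC-like cells. Lymphoid-primed-like cells were at 364 and 414 CPM and erythroblast-like cells at 373 and 381 CPM. The sum reached 475 and 524 CPM in neutrophil progenitor-like cells, 509 and 537 CPM in late erythroid-like cells and 662 and 660 CPM in megakaryocyte-like cells, and stood far above these in hepatocyte-like cells, at 3428 and 3450 CPM. Macrophage-like cells, at 397 and 379 CPM, and endothelial-like cells, at 383 and 408 CPM, did not separate from HSC-like cells in both libraries by their intervals. All classes but the hepatocyte-like thus lay within a span of less than 2-fold in each library, with megakaryocyte-like cells the highest of them.

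The 8 fatty acid enzymes followed another order. Their sum was 324 and 311 CPM in HSC-like, 363 and 360 CPM in lymphoid-primed-like, 287 and 300 CPM in neutrophil progenitor-like and 368 and 361 CPM in megakaryocyte-like cells. It was 346 and 379 CPM in late erythroid-like cells and 117 and 138 CPM in erythroblast-like cells, the lowest class in both libraries. Hepatocyte-like cells were again the highest, at 892 and 975 CPM.

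**Figure D1:**
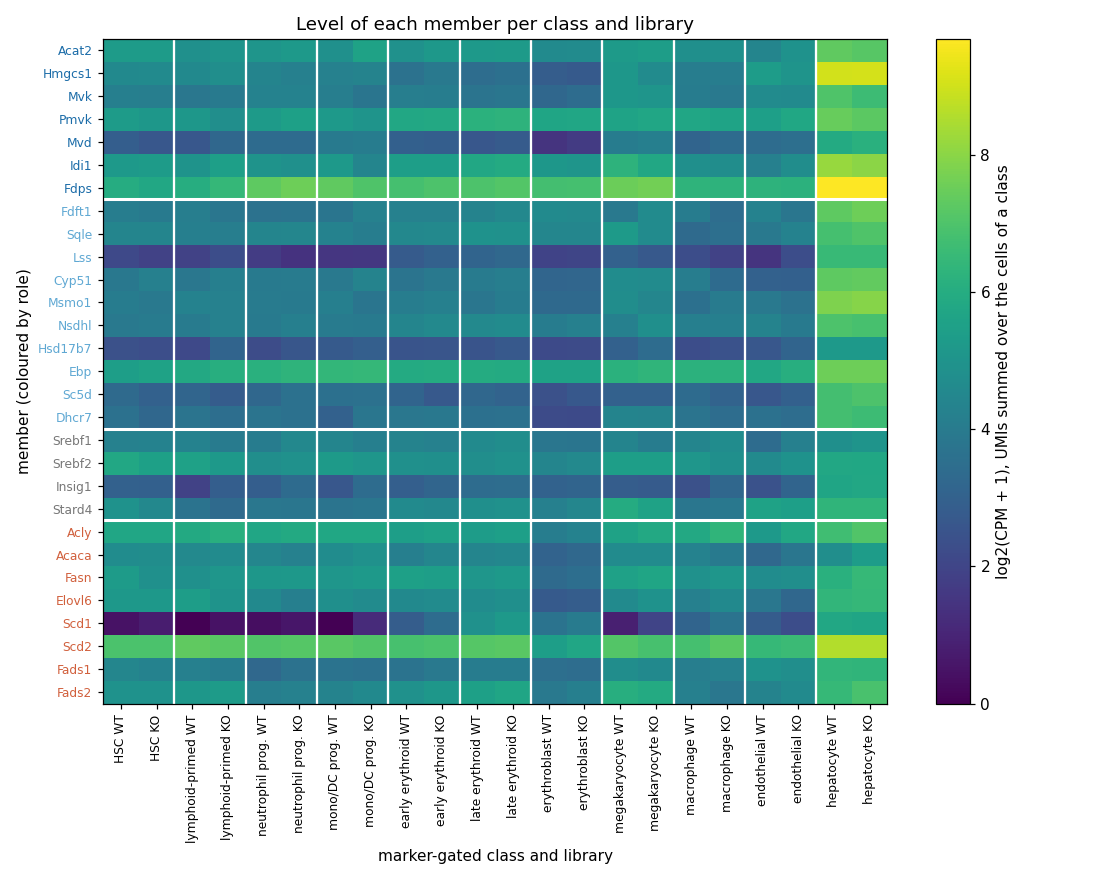
Level of each of the 29 genes (vertical axis, grouped by role) in the 11 marker-gated classes of the WT and KO libraries (horizontal axis), as log2(CPM + 1) in color. The hepatocyte-like columns are the brightest for nearly all sterol enzymes, the erythroblast-like columns are dark in the fatty acid block, and Scd1 is at the bottom of the scale in HSC-like cells, at 0.374 and 0.726 CPM.

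The levels of the members spread widely within a class. In HSC-like cells the most abundant was Scd2, a stearoyl-CoA desaturase that makes monounsaturated fatty acids, at 121 CPM in both libraries. Fdps, which makes farnesyl diphosphate, the branch point to sterols and prenyl groups, followed at 63.1 and 54.8 CPM, and Srebf2, which encodes SREBP-2, was at 55.0 and 44.7 CPM, with Acly at 52.8 and 52.1 CPM. Among the sterol enzymes the lowest was Lss, the cyclase that closes the sterol rings, at 3.37 and 2.72 CPM, followed by Hsd17b7, a sterol ketone reductase, at 4.24 and 3.99 CPM, and Mvd, which decarboxylates mevalonate diphosphate, at 6.36 and 5.26 CPM. Fdps was thus more than 10-fold above Lss in the same cells, although both act on the sterol route. Scd1 was lower still, and is described with Scd2 below.

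Hepatocyte-like cells had more of 24 of the 29 genes than HSC-like cells by at least 2-fold in both libraries, where 10.3% of the 8866 genes with enough UMIs did. Of the 29 members, 9 had under 50 UMIs in a class of at least 1 library and entered through the sum over both classes. With that minimum set in both classes, 17 of 20 members were higher, where 10.3% of 3338 genes were. All 17 sterol enzymes were among the 24, with a median log2 ratio of 3.22 and 3.20, against -0.41 and -0.38 over all genes. Hmgcs1 was at 517 CPM (482 to 553) and 534 CPM (504 to 566) in hepatocyte-like cells and at 23.3 CPM (20.1 to 26.9) and 24.1 CPM (20.2 to 28.6) in HSC-like cells, a log2 ratio of 4.47 in both libraries. Fdps reached 803 and 824 CPM, and Lss 91.8 and 90.7 CPM, with log2 ratios of 4.77 and 5.06 for Lss. Msmo1, the sterol methyl oxidase, was at 223 and 240 CPM against 16.0 and 14.2 CPM. The smallest differences among the sterol enzymes were those of Acat2, the acetyl-CoA thiolase that opens the route (2.05 and 1.91), Ebp, the sterol isomerase (2.14 and 1.97), and Pmvk, phosphomevalonate kinase (2.12 and 2.16).

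Of the 4 control and transport genes, 2 were at least 2-fold higher in hepatocyte-like cells in both libraries and the transcripts of both SREBPs were not. Insig1, which encodes the anchor that retains SREBP, was at 50.2 and 55.1 CPM against 7.11 and 6.90 CPM in HSC-like cells, and Stard4, a cytosolic cholesterol carrier, at 80.2 and 80.6 CPM against 29.6 and 22.1 CPM. Srebf2 was at 55.7 and 53.2 CPM, beside 55.0 and 44.7 CPM in HSC-like cells, a log2 ratio of 0.02 (-0.32 to 0.35) and 0.25 (-0.08 to 0.58). Srebf1, which encodes SREBP-1, had log2 ratios of 0.62 (0.10 to 1.11) and 0.72 (0.25 to 1.17). The transcripts of the activators thus lay within 2-fold between these classes while those of the sterol enzymes did not.

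Of the fatty acid enzymes, 5 of 8 were at least 2-fold higher in hepatocyte-like than in HSC-like cells in both libraries, with a median log2 ratio of 1.41 and 1.65. Scd2 was at 383 and 377 CPM, Elovl6, which lengthens palmitate, at 81.4 and 87.0 CPM, and the desaturases of polyunsaturated fatty acids, Fads1 and Fads2, at 82.6 and 80.1 CPM and at 88.8 and 120 CPM. Acly, Fasn and Acaca, the acetyl-CoA carboxylase of the committed step, were the exceptions. Acaca was at 26.3 and 40.3 CPM beside 24.96 and 25.8 CPM in HSC-like cells. Fasn was at 70.4 and 89.4 CPM, a log2 ratio of 0.85 (0.53 to 1.16) in WT and 1.67 (1.36 to 1.98) in KO. Summed, the sterol enzymes were 9.15-fold and 9.48-fold higher in hepatocyte-like cells and the fatty acid enzymes 2.76-fold and 3.14-fold higher, and the log2 intervals of these sums did not overlap in either library.

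Hepatocyte transcripts were scarce in the blood cells. The 8 hepatocyte markers summed to 42673 and 44696 CPM in hepatocyte-like cells and to 54.3 and 89.3 CPM in HSC-like cells, which is 0.127% and 0.200% of that level. If the 29 genes had leaked in the same proportion, hepatocyte RNA would supply 0.714% and 1.21% of their summed CPM in HSC-like cells. The highest share for any single gene was 3.47% and 6.66% there, and 6.94% and 12.3% in erythroblast-like cells. Endothelial-like cells carried more, at 3.64% and 1.80% of the summed members and up to 29.3% of a single gene in WT. Of the hepatocyte-like cells themselves, 25 also passed the erythroid gate, and 10.0% and 21.9% were called doublets.

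Along the erythroid classes the branches parted. From HSC-like to late erythroid-like cells, only 3 of the 29 genes were higher by at least 2-fold in both libraries, where 7.53% of 10160 genes were, and 1 gene was lower, where 20.6% were. The higher genes were Fdps, at 127 and 135 CPM, Lss, at 7.68 and 8.68 CPM, and Scd1. Lss, with 27 and 15 UMIs in HSC-like cells, and Scd1, with 3 and 4, reached the minimum only through the late erythroid-like class. With the minimum set in both classes, Fdps was the 1 higher member of 22, where 5.02% of 7390 genes were. Fdps itself was 2.01-fold higher in WT and 1.91-fold with hemoglobin, mitochondrial and ribosomal protein genes left out of the total, where 2 members and 6.71% of 10160 genes were higher. Hmgcs1 was the lower gene, at 9.96 and 10.8 CPM against 23.3 and 24.1 CPM, log2 ratios of -1.23 (-1.49 to -0.96) and -1.16 (-1.46 to -0.86). The enzyme of HMG-CoA formation and that of farnesyl diphosphate formation, a few steps apart in the same route, thus stood on opposite sides. Pmvk was at 71.4 and 75.3 CPM against 39.2 and 34.1 CPM, which passed 2-fold in KO only. Summed, the sterol enzymes were 1.36-fold and 1.48-fold higher than in HSC-like cells and the fatty acid enzymes 1.07-fold and 1.22-fold higher.

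From late erythroid-like to erythroblast-like cells the fatty acid enzymes were lower, while most sterol enzymes differed about as much as the other genes. Of the 29 genes, 10 were lower by at least 2-fold in both libraries, where 16.6% of 9875 genes were. They were 7 of the 8 fatty acid enzymes and 3 of the 17 sterol enzymes, Mvd, Lss and Dhcr7, the reductase of the last step. Mvd had under 50 UMIs in a class, and without it 9 of 28 members were lower, where 13.7% of 8065 genes were. The median log2 ratio was -1.55 and -1.39 for the fatty acid enzymes and -0.55 and -0.59 for the sterol enzymes, against -0.59 and -0.54 over all genes.

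Elovl6 differed most among the fatty acid enzymes. It was at 25.1 CPM (23.4 to 26.9) and 27.3 CPM (25.4 to 29.4) in late erythroid-like cells and at 5.78 CPM (4.72 to 7.01) and 6.32 CPM (5.32 to 7.46) in erythroblast-like cells, log2 ratios of -2.12 and -2.11. Fasn was at 33.4 and 37.0 CPM before and at 9.06 and 10.3 CPM after. Scd2 was at 139 and 148 CPM before and at 41.8 and 52.2 CPM after. Acly, Acaca and Fads2 had log2 ratios between -1.65 and -1.20. Fads1, the desaturase that acts after Fads2, was the exception at -0.57 and -0.66, close to the median of all genes.

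Among the sterol enzymes Fdft1, squalene synthase, was not lower: it was at 19.1 CPM (17.6 to 20.7) and 21.9 CPM (20.2 to 23.7) in late erythroid-like and at 24.1 CPM (21.9 to 26.5) and 22.8 CPM (20.8 to 24.8) in erythroblast-like cells. Its exons overlap those of Ctsb on the opposite strand. Fdps was at 127 and 135 CPM before and at 109 and 114 CPM after, and Sqle, squalene epoxidase, at 29.4 and 29.2 CPM before and at 21.0 and 20.8 CPM after. Cyp51, the sterol demethylase, lay at the border with log2 ratios of -0.96 and -1.04.

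These CPM values include hemoglobin. UMIs of hemoglobin, mitochondrial and ribosomal protein genes made up 47.9% and 48.0% of the erythroblast-like total and 33.4% and 33.2% of the late erythroid-like total. With these genes left out of the total, 7 of the 29 genes remained at least 2-fold lower in both libraries, where 6.11% of 9875 genes were: Fasn, Elovl6, Scd2, Fads2, Mvd, Lss and Dhcr7. On that scale the summed sterol enzymes of erythroblast-like cells were at 0.937 and 0.912 of the late erythroid-like level and the fatty acid enzymes at 0.433 and 0.469. The direction of the sterol sum turned under a further scaling, as given in the closing section, whereas that of the fatty acid sum did not.

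Inside the erythroblast-like class the fatty acid sum was likewise lower in the cells with more erythroblast markers. Cells were divided at 1000 CPM of summed erythroblast markers into 201 and 383 lower and 479 and 748 upper cells. The fatty acid sum was 195 and 212 CPM in the lower and 63.6 and 79.8 CPM in the upper cells, and on the scale without abundant genes the upper cells were at 0.429 and 0.505 of the lower. The sterol sum on that scale was at 0.898 and 0.934. The lower cells held more doublet calls, 16.9% and 17.8% against 2.71% and 3.74%, and more Mpo, a neutrophil granule enzyme, at 39.1 and 58.2 CPM against 10.1 and 12.96 CPM, and more Cd34, at 22.7 and 26.5 CPM against 5.82 and 7.21 CPM. Without the cells called doublets the fatty acid ratio was 0.405 and 0.491 and the sterol ratio 0.882 and 0.915, and the part of other cell types in these values was not tested. Elovl6 was at 1.60 and 2.35 CPM and Fasn at 3.76 and 4.37 CPM in the upper cells, while Fdft1 was at 23.8 and 23.3 CPM there.

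**Figure D2:**
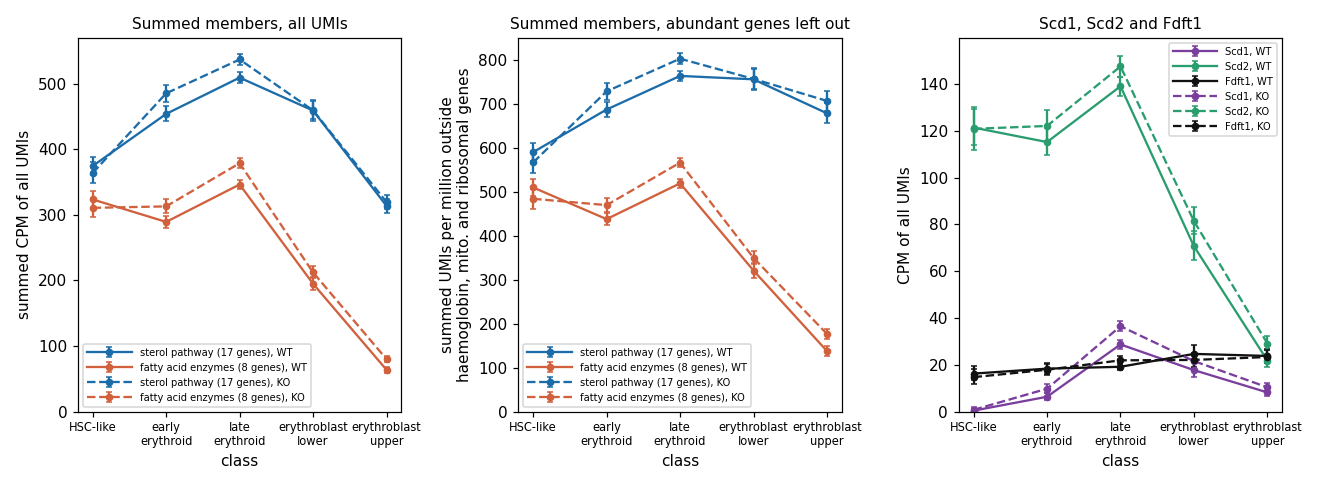
Summed sterol and fatty acid enzymes on 2 scales (left, CPM of all UMIs; middle, CPM of the UMIs outside hemoglobin, mitochondrial and ribosomal protein genes) and 3 single genes in CPM (right), by class along the horizontal axis, WT solid and KO dashed, with 95% counting intervals. The fatty acid sum goes from 346 and 379 CPM in late erythroid-like cells to 63.6 and 79.8 CPM in the upper erythroblast-like cells on the left, while the sterol sum in the middle lies between 679 and 804 from late erythroid-like cells onward.

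**Figure D3:**
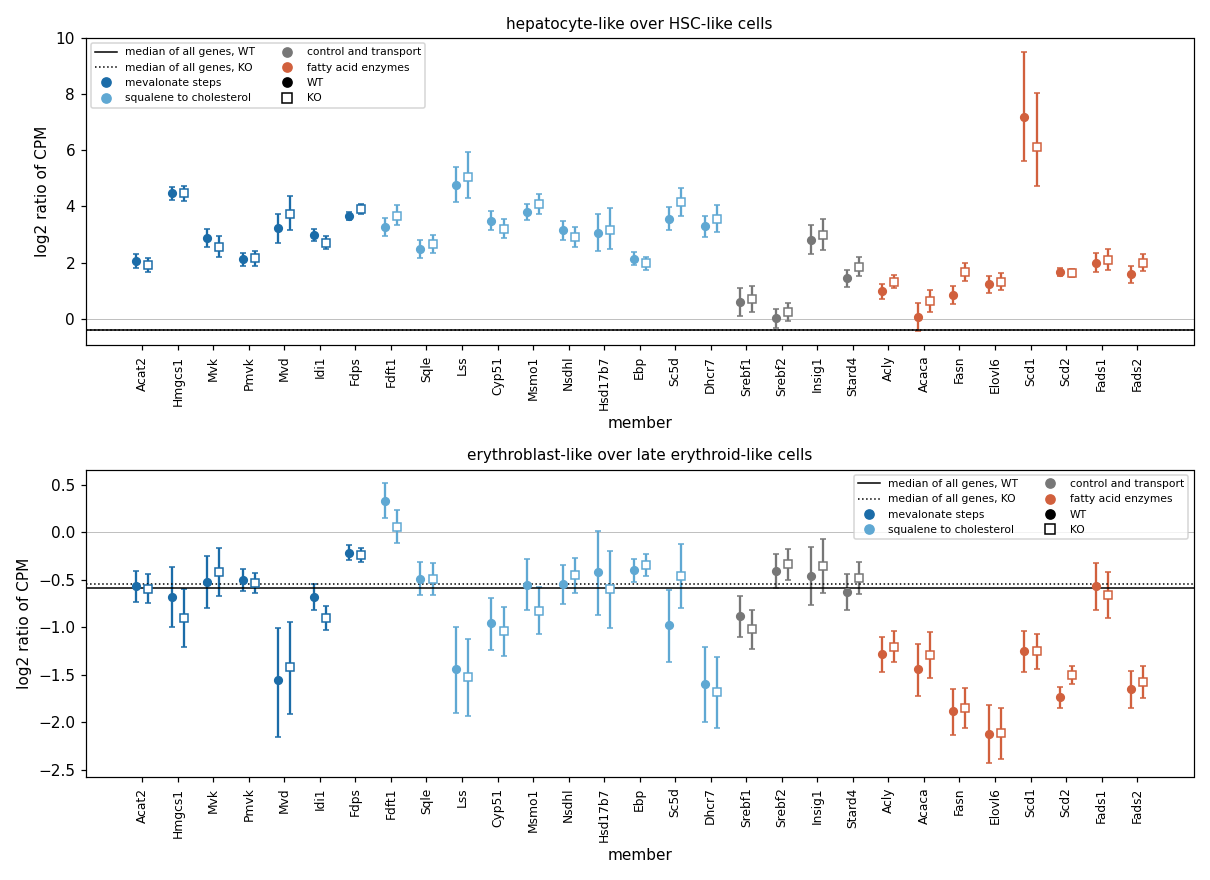
Log2 ratio of CPM for each gene, WT as circles and KO as squares with 95% counting intervals, for hepatocyte-like over HSC-like cells (top) and erythroblast-like over late erythroid-like cells (bottom), with the median of all genes as horizontal lines. All 17 sterol enzymes lie above 1 in the top panel, and 7 of 8 fatty acid enzymes lie below -1 in the bottom panel.

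Scd1 and Scd2 encode desaturases of the same reaction, and their balance differed between classes. In HSC-like cells nearly all desaturase UMIs were Scd2: Scd1 had 3 UMIs in WT and 4 in KO, 0.307% (0.0634 to 0.896) and 0.597% (0.163 to 1.52) of the summed Scd1 and Scd2 UMIs. The Scd1 share was 5.197% (4.16 to 6.40) and 7.39% (6.11 to 8.85) in early erythroid-like cells and 17.1% (16.1 to 18.1) and 19.8% (18.7 to 21.0) in late erythroid-like cells. It was 22.4% (19.8 to 25.2) and 22.7% (20.6 to 24.9) in erythroblast-like cells. The intervals of neighboring classes in this order were apart, except between late erythroid-like and erythroblast-like cells in KO.

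In CPM, Scd1 was at 0.374 (0.0772 to 1.09) and 0.726 (0.198 to 1.86) in HSC-like cells, 6.32 (5.03 to 7.83) and 9.75 (8.001 to 11.7) in early erythroid-like cells, 28.7 (26.9 to 30.6) and 36.5 (34.2 to 38.8) in late erythroid-like cells and 12.1 (10.51 to 13.8) and 15.3 (13.7 to 17.03) in erythroblast-like cells. The log2 ratio of late erythroid-like over HSC-like cells was 6.26 (4.71 to 8.54) and 5.65 (4.29 to 7.53). The last class therefore had a higher share of Scd1 at a lower level of both desaturases. Neutrophil progenitor-like cells had 2 and 3 Scd1 UMIs beside 903 and 821 of Scd2. Of the last 1000 transcript bases of Scd1, 11.5% of the 50-base words also occur in Scd2, Scd3 or Scd4, so reads there could not be assigned to a single gene.

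Scd1 was also present in hepatocyte-like cells, at 55.1 and 50.5 CPM and 12.6% and 11.8% of the desaturase UMIs. It stood at 7.82 and 11.97 CPM in macrophage-like cells and at 6.14 and 3.83 CPM in endothelial-like cells. Klf1, an erythroid transcription factor, was at 88.6 and 74.2 CPM in macrophage-like, 79.8 and 59.8 CPM in endothelial-like and 86.9 and 66.7 CPM in hepatocyte-like cells, beside 366 and 342 CPM in late erythroid-like and 3.37 and 6.35 CPM in HSC-like cells. The part of erythroid RNA in the Scd1 of these classes was not tested.

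Some members differed in level between HSC-like cells and several other classes. Fdps was at 154 CPM (145 to 164) and 184 CPM (174 to 196) in neutrophil progenitor-like cells, at 158 and 128 CPM in monocyte and dendritic progenitor-like cells and at 183 and 195 CPM in megakaryocyte-like cells, so that HSC-like cells, at 63.1 and 54.8 CPM, were the lowest class in both libraries, next to lymphoid-primed-like cells at 65.2 CPM in WT. In the last 1000 transcript bases of Fdps, 40.6% of the 50-base words recur in pseudogenes that the count tables do not list. Stard4 was at 60.9 and 47.4 CPM in megakaryocyte-like and 47.4 and 42.9 CPM in endothelial-like cells, against 29.6 and 22.1 CPM in HSC-like and 13.3 and 13.1 CPM in neutrophil progenitor-like cells. Srebf2 had its highest blood level in HSC-like cells, 55.0 and 44.7 CPM, beside 26.9 and 29.1 CPM in neutrophil progenitor-like and 26.7 and 28.7 CPM in late erythroid-like cells. The activator and the enzyme Fdps were thus in opposite order between HSC-like cells and these classes.

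Cycling HSC-like cells did not have more of the pathway than the others. HSC-like cells were split at 1000 CPM of 20 proliferation genes, giving 257 and 270 cycling and 227 and 184 other cells. The sterol sum was 356 and 351 CPM in cycling and 408 and 397 CPM in other cells, a ratio of 0.873 and 0.885. The fatty acid sum was 324 and 310 CPM in cycling and 322 and 314 CPM in other cells. None of the 22 members with enough UMIs was past the fold upward in cycling cells in both libraries, where 9.94% of 7815 genes were, and 3 were lower, where 6.67% were: Cyp51, Msmo1 and Fads2. Fads2 had log2 ratios of -0.53 (-0.91 to -0.15) and -0.58 (-1.05 to -0.09), and the intervals of Cyp51 reached past 0 in both libraries and that of Msmo1 in KO. The cycling share of HSC-like cells was 53.1% and 59.5%, and 55.4% and 62.5% after thinning each cell to 5000 UMIs, which left out 11 and 22 cells.

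Between genotypes the module as a whole moved little. Its summed control and transport genes were lower in KO HSC-like cells outside cycle, with limits that are given below. The median log2 KO/WT of the members with at least 50 UMIs was -0.04 in HSC-like cells (27 genes, where the median of all genes was 0.01), 0.08 in neutrophil progenitor-like cells (27 genes; 0.01), 0.08 in early erythroid-like cells (29 genes; 0.02), 0.10 in late erythroid-like cells (29 genes; 0.03), 0.09 in erythroblast-like cells (29 genes; 0.05) and 0.04 in hepatocyte-like cells (29 genes; 0.04). Summed over all 29 genes, the log2 KO/WT was -0.07 (-0.13 to -0.02) in HSC-like cells and 0.10 (0.07 to 0.12) in late erythroid-like cells. The remaining classes had medians between -0.04 and 0.20, the highest from 14 genes in endothelial-like cells. What genotype, embryo pool, sex and depth contributed cannot be told apart in 1 library each.

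In HSC-like cells, 1 member was higher and 4 were lower in KO past the fold, where 6.9% and 8.5% of 9800 genes were. Fasn was at 39.1 CPM (34.9 to 43.6) and 28.1 CPM (23.9 to 32.9), from 313 WT and 155 KO UMIs, a log2 ratio of -0.47 (-0.76 to -0.19). Stard4 was at 29.6 CPM (25.9 to 33.6) and 22.1 CPM (18.4 to 26.4), a log2 ratio of -0.42 (-0.74 to -0.10). The intervals of the levels did not overlap for Fasn and overlapped slightly for Stard4. The lower values of Sc5d, the sterol desaturase (-0.38), and Dhcr7 (-0.38) and the higher value of Cyp51 (0.36) had intervals that included 0. With cells grouped by cluster Dhcr7 was at -0.24 and Cyp51 at 0.25, within the fold. The difference in Stard4 was -0.73 (-1.32 to -0.17) in the cells outside cycle and was -0.19 (-0.60 to 0.21) in the cycling cells, whereas Fasn was lower in both, at -0.57 and -0.39. Srebf2 was lower in KO HSC-like cells within the fold, at -0.30 (-0.53 to -0.07). Outside cycle, 3 of 23 members were higher and 6 lower, where 10.99% and 11.84% of 7289 genes were. All 3 control and transport genes with enough UMIs were among the lower ones there. The 4 summed were at 129 CPM (116 to 143) and 90.6 CPM (76.3 to 107). In the cycling cells that sum was 98.6 and 93.3 CPM, with overlapping intervals. In other classes it went either way, for example 79.2 and 67.8 CPM in lymphoid-primed-like and 62.2 and 73.5 CPM in neutrophil progenitor-like cells. This sum by cycle was not among the planned results and was not recomputed under the alternatives. The cells outside cycle had medians of 12354 and 8057.5 UMIs, and the part of depth was not tested.

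In the erythroid classes the member past the fold in all 3 was Scd1. Its log2 KO/WT was 0.63 (0.20 to 1.06) in early erythroid-like, 0.35 (0.22 to 0.48) in late erythroid-like and 0.34 (0.09 to 0.60) in erythroblast-like cells. In early erythroid-like cells it was the 1 member higher, where 6.84% of 9514 genes were, and Sc5d the 1 member lower, where 5.44% were, at -0.48 (-0.96 to -0.01). In late erythroid-like cells it was the 1 member higher, where 7.84% of 10285 genes were, and none was lower, where 3.49% were. In erythroblast-like cells 3 members were higher, where 12.7% of 9428 genes were, and none was lower, where 3.96% were.

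The other members higher in KO erythroblast-like cells were Scd2, at 41.8 CPM (38.8 to 44.8) and 52.2 CPM (49.2 to 55.3), and Sc5d. KO cells of this class also carried more Pf4, a platelet chemokine, at 7.3 and 68.3 CPM, and more Mpo, at 21.9 and 33.0 CPM. Their part in these values was not tested. Without the cluster held almost entirely by KO cells, 1 member passed the fold in this class. With cells grouped by cluster in place of the gates none did, and the count in the late erythroid-like class was 2.

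Neutrophil progenitor-like cells had 5 members higher in KO, where 6.84% of 8951 genes were, and 1 lower, where 8.71% were. Srebf1 was at 15.6 and 21.9 CPM, a log2 ratio of 0.49 (0.11 to 0.87), and Elovl6 at 23.2 and 17.2 CPM, a log2 ratio of -0.43 (-0.81 to -0.07). The intervals of Insig1, Hsd17b7, Fads1 and Sc5d, between 0.41 and 0.54 higher, included 0. With cells grouped by cluster, 2 members in place of 6 passed the fold.

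In hepatocyte-like cells, 3 members were higher, where 16.4% of 6503 genes were, and 1 was lower, where 9.09% were. Fads2 was at 88.8 and 120 CPM, a log2 ratio of 0.44 (0.14 to 0.74), Acaca at 26.3 and 40.3 CPM (0.61, 0.07 to 1.18) and Fasn at 70.4 and 89.4 CPM (0.34, 0.00 to 0.69). Mvk was at 129 and 99.5 CPM, a log2 ratio of -0.37 (-0.65 to -0.09). The count went from 4 to 8 members without the cells called doublets, and to 9 with each cell weighted alike. In cells with Xist and no Y-linked UMI, Acaca was at 0.019 and 2 members passed the fold.

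**Figure D4:**
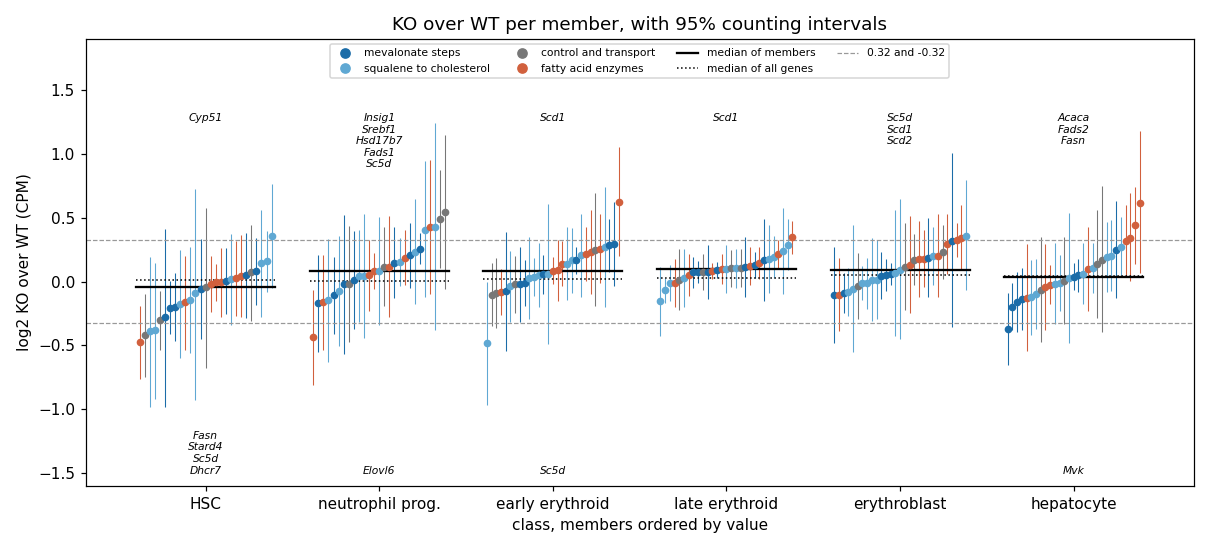
Log2 KO/WT of CPM for each member with at least 50 UMIs, ordered by value within 6 classes, with 95% counting intervals. Solid bars are the medians of the members and dotted bars those of all genes, dashed lines mark 0.32 and -0.32, and most members lie between the dashed lines, with Fasn and Stard4 lowest in HSC-like cells and Scd1 highest in early and late erythroid-like cells.

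A further list of 34 genes of the same pathways, covering sterol sensing, uptake, export and acyl chain handling, was read beside the members. In HSC-like cells 4 of 28 measured genes were higher in KO and 5 were lower past the fold, where 6.9% and 8.5% of 9800 genes were. Only Scap, the escort of SREBP, is named of these, and it does not stand for the list. It was a lower gene, at 23.7 and 18.5 CPM, a log2 ratio of -0.36 (-0.72 to -0.00). In erythroblast-like cells 8 of 26 were higher and none lower, where 12.7% and 3.96% of 9428 genes were. Of these 8 only Slc25a1, the mitochondrial citrate carrier that supplies Acly, is named. It was at 19.96 and 28.8 CPM, a log2 ratio of 0.53 (0.34 to 0.72). Hepatocyte-like cells were at least 2-fold higher than HSC-like cells for 14 of 29 and lower for 2, where 10.3% and 18.2% of 8866 genes were.

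The largest genotype difference of the further list was in macrophage-like cells, 57 and 109 in number, where 11 of 24 genes were higher in KO and 2 lower, beside 19.5% and 11.1% of 7524 genes. The genes named next, of sterol sensing, export and storage, are only a part of the higher ones and do not stand for the list. The other higher genes and the 2 lower ones are not named for this class. Nr1h3, the sterol-sensing receptor LXRα, was at 72.6 and 131 CPM, a log2 ratio of 0.86 (0.58 to 1.13). Abca1, which exports cholesterol, was at 76.9 and 128 CPM, a log2 ratio of 0.73 (0.46 to 1.00). Npc1, which moves cholesterol out of lysosomes, was at 16.9 and 33.5 CPM, and Soat1, which esterifies it, at 49.1 and 81.8 CPM. The synthesis members of the same cells had a median of 0.00, with 5 higher and 4 lower of 22. The macrophage marker C1qa was at 679 and 1117 CPM and Cd34, a progenitor marker, at 132 and 83.4 CPM in these cells. Over both libraries, 34 macrophage-like cells also passed the erythroid cut and 22 the HSC cut. Doublet calls made up 5.26% and 15.6% of the class, and the median was 36522 and 18001 UMIs per cell. The part of cell make-up, doublets and depth in the genotype difference was not tested.

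Position and annotation bear on a few members. Ebp and Nsdhl, a sterol dehydrogenase, are on the X chromosome, and were at 42.3 and 47.2 CPM and at 14.0 and 15.4 CPM in HSC-like cells of libraries that differed in their share of female cells. Fads1 and Fads2, and also Scd1 and Scd2, lie close together on chromosome 19 (GRCm38; Scd2 at 44293674 to 44306864 and Scd1 at 44394455 to 44407879, on opposite strands). In the last 1000 transcript bases of Acat2, 41.4% of the 50-base words also occur in Acat3, and 25.8% of those of Idi1, which isomerizes the isoprenoid unit, in pseudogenes outside the tables. The values of these genes may therefore miss or hold reads of their copies.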

How the data were processed

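Fetal liver LSK cells of 1 WT and 1 KO library were profiled with 10x Genomics single cell 3′ chemistry. Per the labels and the study's methods, the authors demultiplexed and aligned the reads to GRCm38 with Cell Ranger 6.0.0 and deposited filtered matrices of raw UMI counts, with no normalization. UMIs were merged by the aligner, so PCR copies are counted once, and a gene is identified from its 3′ end.

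A minimum of 1000 genes and a ceiling of 20% mitochondrial UMIs per cell removed 382 WT and 511 KO barcodes and left 108325741 and 99069309 UMIs. Each cell was placed in a class by the summed CPM of marker lists, with cuts of 200 (erythroid), 300 (lymphoid-primed, and erythroblast within erythroid), 350 (early against late erythroid), 400 (HSC, monocyte and dendritic progenitor), 500 (megakaryocyte, macrophage), 600 (endothelial), 2000 (neutrophil progenitor) and 5000 CPM (hepatocyte). For the HSC list 587 cells lay within 25% of the cut. A single mature cut (megakaryocyte, macrophage, endothelial or hepatocyte) took precedence over the erythroid and progenitor cuts. Cells past several mature cuts, or past both the erythroid and a stem or progenitor cut without a mature one (59 and 95), entered no class. Cells past no cut (631 and 684) entered none either. Doublets were called with Scrublet (scanpy 1.11.5) in 135 WT and 256 KO cells and were kept. UMIs were summed per class and divided by the class total. Intervals are exact Poisson for levels and exact binomial for shares and ratios (scipy 1.17.1), at 95%. A gene entered a KO/WT comparison with at least 50 UMIs in both libraries together and a class comparison with at least 50 in each library over both classes. Thresholds were 0.32 on the log2 scale for genotype and cycling and 2-fold for classes, and the share of all genes past the same fold is given beside each count. The counting steps were tested on simulated data.

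All 29 members are named by role. The members, the gene lists and the rule were chosen with earlier results of these data known. Of 32285 gene identifiers, 32158 were found in GENCODE vM21, which gave positions; promoters are from RefSeq. Some further pathway genes are counted in their list and not reported by name here. Alternatives were a stricter gate, a higher gene minimum, clusters named from the same markers, cells without doublet calls, cells with Xist and no Y-linked UMI, a scale without abundant genes, median-of-ratios scaling, the mean of CPM per cell, subtraction of hepatocyte-like RNA, thinned cells, minimums of 20 and 200 UMIs and, chosen after seeing the data, the removal of a cluster held by 1 library and, for class comparisons, 50 UMIs in both classes.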

Additional observations from a re-analysis of the deposited data

Results flagged for a closer look

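Sc5d differed in direction between classes in its log2 KO/WT: it was -0.38 in HSC-like cells and -0.48 in early erythroid-like cells, but 0.41 in neutrophil progenitor-like cells and 0.36 in erythroblast-like cells. In cells grouped by cluster the neutrophil progenitor-like value was 0.079, in cells with Xist and no Y-linked UMI the erythroblast-like value was 0.076, and the latter class was past 0.32 in 4 of 9 settings. Only the interval in early erythroid-like cells excluded 0, and the difference between classes was not tested, since there was 1 library for each genotype.

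Fasn was lower in KO HSC-like cells, with a log2 KO/WT of -0.47 (-0.76 to -0.19), and higher in KO hepatocyte-like cells, with 0.34 (0.00 to 0.69). This difference was not tested either.

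Cells with mixed markers, past several mature cuts or past both the erythroid and a progenitor cut, were used in no comparison. Their summed sterol enzymes were at 661 CPM in WT (59 cells) and 793 CPM in KO (95 cells), above the 375 and 364 CPM of HSC-like cells. The same cells carried the hepatocyte marker Afp at 1467 and 1813 CPM and the platelet chemokine Pf4 at 1084 and 2925 CPM.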

How the results depend on the processing

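No paired analysis was possible because WT and KO were measured in 1 library each. Each value recomputed under the alternatives was set against a bound. The bound was the counting interval for ratios and single genes and 1.5 times for counts. For medians of log2 KO/WT it came from the interval of the summed members, since medians had none of their own. Of 534 values, 459 stayed within the bound and 73 moved past it. Another 2 reversed: under median-of-ratios scaling the sterol sum of erythroblast-like over late erythroid-like cells was 1.10 in WT and 1.03 in KO, against 0.732 and 0.710. That scaling centers each class on its median gene. The ratios of cycling over other HSC-like cells moved in no setting.

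For late erythroid-like over HSC-like cells, the sterol sum ratio was 1.45 by clusters, 1.29 without abundant genes and 1.57 by median-of-ratios in WT, and 1.65 by median-of-ratios in KO. The fatty acid sum ratio was 1.02 without abundant genes and 1.24 by median-of-ratios in WT, and 1.37 by the latter in KO. For hepatocyte-like over HSC-like cells, the sterol ratio in WT and KO was 10.3 and 11.1 without doublet calls, 8.12 and 8.39 without abundant genes, 12.3 and 12.1 by median-of-ratios and 10.51 and 10.6 by the mean per cell, and 8.89 in KO female cells (with Xist and no Y-linked UMI). The fatty acid ratio was 3.05 and 3.68 without doublet calls, 2.45 and 2.78 without abundant genes, 3.71 and 4.02 by median-of-ratios, and 3.52 in KO by the mean per cell. For erythroblast-like over late erythroid-like cells, the sterol ratio was 0.775 and 0.745 by clusters, 0.937 and 0.912 without abundant genes, 0.688 and 0.671 by the mean per cell, and 0.678 in KO female cells. The fatty acid ratio was 0.497 and 0.465 by clusters, 0.308 and 0.317 without doublet calls, 0.433 and 0.469 without abundant genes, 0.509 and 0.530 by median-of-ratios and 0.300 and 0.292 by the mean per cell, below 1 in every setting.

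Median log2 KO/WT moved in 6 classes. In lymphoid-primed-like cells it was 0.014 by clusters, 0.00028 in female cells and 0.23 at a minimum of 200 UMIs, against 0.11. It was 0.14 by clusters and 0.071 by median-of-ratios in late erythroid-like cells, 0.041 by median-of-ratios in erythroblast-like cells, 0.065 by the mean per cell and -0.14 at 200 UMIs in megakaryocyte-like cells, and -0.0014 without doublet calls in endothelial-like cells. In hepatocyte-like cells it was 0.11 without doublet calls and -0.0073 by median-of-ratios.

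Counts of members past 0.32 (log2 KO/WT, up or down) were 5 in HSC-like cells in all 9 settings, although Cyp51 and Dhcr7 were past it in 7 of the 9 each. The count of members higher in late erythroid-like than in HSC-like cells was 1 with 50 UMIs required in both classes (3 as reported). They were 2 by clusters and 3 in female cells in neutrophil progenitor-like cells (6 as reported), and 4 by clusters, 4 in female cells and 5 by the mean per cell in early erythroid-like cells (2 as reported). In late erythroid-like cells (1 as reported) they were 2 by clusters, 3 in female cells, 0 by median-of-ratios and 2 by the mean per cell. In erythroblast-like cells (3 as reported) they were 0 by clusters, 1 in female cells, 1 without the cluster held by 1 library, 0 by median-of-ratios and 1 by the mean per cell. In hepatocyte-like cells (4 as reported) they were 8 without doublet calls, 2 in female cells and 9 by the mean per cell. Over 9 settings Fasn in HSC-like cells lay between -0.52 and -0.44 and Stard4 between -0.55 and -0.42. Scd1 lay between 0.33 and 0.64 in early, between 0.32 and 0.40 in late erythroid-like and between 0.13 and 0.37 in erythroblast-like cells, where Scd2 lay between 0.063 and 0.33. In hepatocyte-like cells Acaca lay between 0.019 and 0.85. The cause of these shifts was not tested. The 30 WT hepatocyte-like and 28 WT megakaryocyte-like cells limit the precision there.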
